A study of Mus musculus with 12 samples.

Results

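The genes described here are 10 gene models of a duplicated stretch of mouse chromosome 4: Gm10601, Gm13302, Fam205a4, Gm13303, Gm21093, Gm3892, Gm3893, Gm13301, Gm17081 and Gm10600. They were chosen by name, as 10 of the 46403 genes in a kidney count table, because their levels differed between the genotypes and because they had been taken for near-identical copies. Their levels and differences between genotypes are therefore given as a description, with no test. The models lie between 41809083 and 42242685 on chromosome 4 of mm10, a stretch of 433.6 kb, 8 of them on the plus strand and 2 on the minus strand. In GENCODE M21, 4 are protein-coding (Gm10600, Gm21093, Gm3893 and Fam205a4), 4 are unprocessed pseudogenes (Gm10601, Gm13302, Gm13303 and Gm17081), Gm13301 is a transcribed unprocessed pseudogene and Gm3892 is an antisense RNA.

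A segmental duplication is a stretch of genome copied whole, with its genes, so that the copies start out with the same sequence and then gather base changes. Unprocessed pseudogenes are such copies that have lost their coding capacity, and they can still be transcribed. The stretch described here also holds copies of Il11ra, which encodes the receptor chain for interleukin 11, and of Ccl19, Ccl21 and Ccl27, which encode chemokines that guide lymphocytes. Fam205a4 belongs to the Fam205a genes, relatives of the SPATA31 family known from testis. A short read from a copied stretch fits several copies equally well, so that the level of a single copy depends on how such reads are assigned.

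The study measured polyA RNA of the whole right kidney of untreated mice in 12 libraries. The 5 WT libraries came from mice the submitters call wild type, which carry R26StopFLMYC and Grhl2 flox/flox. The 4 Grhl2KO_Myc libraries are labelled Grhl2 knockout with Myc overexpression. These mice came from HoxB7-Cre; Grhl2flox/+ animals mated to R26StopFLMYC; Grhl2flox/flox animals, so that the floxed Grhl2 allele and R26StopFLMYC, a Myc transgene behind a floxed stop, run in both groups. The 3 Myc libraries are labelled Myc overexpression, with HET in their identifiers where the other groups have WT and KO. What HET stands for is not given, and the labels give no cross and no Grhl2 alleles for these libraries. HoxB7-Cre is active in cells of the ureteric bud lineage, hence in collecting ducts, a small share of the kidney's cells, and Grhl2 encodes a transcription factor of such epithelia. Age, strain and sex are not given, nor whether each replicate was a separate mouse, so that p-values measure the spread between these libraries only.

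The libraries held 52973520 to 108164810 counts each. The proximal tubule, collecting duct and podocyte markers Slc34a1, Aqp2 and Nphs1 were present in every library, at no less than 223.5, 211.8 and 34.9 CPM (TMM-scaled CPM, a gene's share of the library's counts). Grhl2 stood at 25.8 ± 2.04 CPM in WT (SD, n = 5), 29.9 ± 2.71 in Myc (n = 3) and 21.04 ± 2.78 in Grhl2KO_Myc (n = 4), and the row for mouse Myc at 26.7 ± 6.06, 23.6 ± 4.24 and 30.1 ± 2.23. Neither row separated Grhl2KO_Myc from WT library by library, so the groups are named by their labels. Grhl2 ran from 18.5 to 24.3 CPM in Grhl2KO_Myc, with the lowest WT library at 23.9. It did not overlap the Myc libraries, at 28.2 to 33.0 CPM, whereas the row for mouse Myc did. The proximal tubule score, the mean log2 CPM of 10 markers relative to their mean over the libraries, was -1.46 to -1.07 in WT 4, Grhl2KO_Myc 3 and Grhl2KO_Myc 4 and -0.083 to 0.898 in the other 9 libraries. Ddx3y, a Y-linked gene, stood at 62.8 to 81.2 CPM in WT 5, Myc 3, Grhl2KO_Myc 1 and Grhl2KO_Myc 4 and at most at 1.33 CPM elsewhere. Xist, made from the inactive X chromosome, was low in the same 4 libraries and also in Grhl2KO_Myc 3, at 0.213 CPM.

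The sequences show that 9 of the models form a family and that Fam205a4 stands outside it. A pair of stretches of 100 bases was taken from the GENCODE M21 transcripts, outside any annotated UTR. Each was sought within a part of the models set beforehand, among stretches that align closely and without gaps. Within those limits it is where the models sharing the stretch differ at the most positions, and they may differ more elsewhere. The first is shared by 7 models and is printed for Gm13301, Gm10601 and, as its nearest stretch, Fam205a4. The capital marks the only position at which the 7 models differ.
Gm13301: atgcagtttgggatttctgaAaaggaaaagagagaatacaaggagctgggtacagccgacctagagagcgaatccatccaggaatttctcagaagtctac
Gm10601: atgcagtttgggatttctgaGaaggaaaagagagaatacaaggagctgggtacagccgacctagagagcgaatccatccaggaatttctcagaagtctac
Fam205a4: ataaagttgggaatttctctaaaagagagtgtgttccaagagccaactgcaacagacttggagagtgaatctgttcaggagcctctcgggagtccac

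Counted from 1 at the 5′ end of the stretch, Gm10601 carries A21G against Gm13301. Gm10600, Gm13302, Gm13303, Gm3892 and Gm3893 have the letters of Gm13301 at every one of the 100 bases, whereas the nearest stretch of Fam205a4 needs 34 edits. In Gm10600 the stretch is bases 429 to 528 of the model and opens its coding sequence, and in Gm13301 it is bases 2166 to 2265.

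The second stretch includes Gm17081 and Gm21093, which do not hold the whole of the first. It is printed for the 5 models that hold it, with capitals at the 5 positions where they differ.
Gm13301: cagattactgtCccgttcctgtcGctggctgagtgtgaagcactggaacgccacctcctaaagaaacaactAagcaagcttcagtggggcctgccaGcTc
Gm17081: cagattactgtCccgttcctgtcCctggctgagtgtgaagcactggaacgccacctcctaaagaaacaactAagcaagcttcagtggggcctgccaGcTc
Gm13302: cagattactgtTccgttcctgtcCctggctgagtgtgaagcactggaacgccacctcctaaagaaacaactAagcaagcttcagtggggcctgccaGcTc
Gm3892: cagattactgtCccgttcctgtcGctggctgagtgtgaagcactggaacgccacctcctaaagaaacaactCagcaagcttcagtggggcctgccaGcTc
Gm21093: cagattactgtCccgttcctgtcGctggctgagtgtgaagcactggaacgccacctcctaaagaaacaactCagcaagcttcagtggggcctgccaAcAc

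Against Gm13301, Gm17081 carries G24C and Gm3892 carries A72C. Gm13302 carries C12T and G24C, and Gm21093 carries A72C, G97A and T99A. The nearest stretch of Fam205a4 needs 32 edits.

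Over their longest alignments, the 9 models other than Fam205a4 were 97.3 to 100% identical in the 33 pairs that aligned, with a median of 99.1%. These alignments spanned 88 to 1596 bases, and Gm17081 did not align to Gm10601, Gm13303 or Gm3893. Fam205a4 aligned to 8 of the 9 at 79.0 to 94.3%, with a median of 83.0%, over 296 to 648 bases. Over the bases that align, the name of near-identical copies therefore holds for 9 of the 10, called the 9 copies below. It does not hold for Fam205a4. Its own close relatives are Fam205a2 and Fam205a3, each identical to it over 3927 bases, and Fam205a1, at 98.9% over 4146 bases. All 3 lie further along the same stretch and are not among the 10.

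Only a part of each model can be told from other genes. Of all 50-base words in a model's transcripts, the share found in no other annotated transcript was 18.1% for Gm10601, 15.1% for Gm13302, 13.8% for Gm13301, 8.9% for Gm17081, 7.5% for Gm10600 and 2.3% for Gm3893. It was 0% for Gm13303, Gm3892, Gm21093 and Fam205a4, so these 4 models hold no 50-base word of their own. Beyond the 10 models and the 40 neighbours described below, Gm3892 alone matched another annotated gene at 90% identity over 100 bases, 4930578G10Rik. That gene lies on the same chromosome, between 42735545 and 42846248. Exons also overlap: Gm13301 shares 1312 of its 2446 bases with Gm17167 on the same strand, Gm21093 shares 146 bases with Gm37530 and Gm13302 shares 53 bases with Gm13307, the last pairs on opposite strands, and the library kit does not mark strand.

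Models of identical sequence had nearly identical counts. Fam205a2 and Fam205a3 had the same count in 10 of 12 libraries and differed by 1 count in the rest, with 4386 counts in all for each. Gm3892 and its neighbour Gm10593, which is not among the 10, had 4900 and 4858 counts in all and never differed by more than 13 in a library. The chi-square of the count differences over 12 libraries was 0.953 for Gm3892 and Gm10593 and 0.00295 for Fam205a2 and Fam205a3, where separate reads would give about 12. No source used here gives the rule by which reads were assigned, and whether the same reads were counted at both was not tested. A sum over the models is given as a summed level and not as a number of RNA molecules.

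Of the 10 models, those furthest along the chromosome are Gm13301, Gm17081 and Gm10600, within 25.8 kb between 42216908 and 42242685. They had the largest folds of the 10 between WT and Grhl2KO_Myc. Gm13301, the transcribed pseudogene of 5 exons, stood at 6.18, 5.34, 6.89, 3.61 and 3.45 CPM in WT 1 to 5. It stood at 4.93, 4.55 and 4.41 CPM in Myc 1 to 3 and at 0.581, 0.533, 0.480 and 0.319 CPM in Grhl2KO_Myc 1 to 4. Every Grhl2KO_Myc library lay far below every other library, and Myc lay within the range of WT. The means were 5.09 ± 1.53 CPM in WT (SD, n = 5), 4.63 ± 0.271 in Myc (n = 3) and 0.478 ± 0.114 in Grhl2KO_Myc (n = 4), a level 10.6-fold lower than in WT and 9.67-fold lower than in Myc. In whole kidney, fewer cells of a type and less RNA per cell cannot be told apart.

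Gm10600, a protein-coding model in a single exon, stood at 6.74, 6.43, 7.80, 5.04 and 4.56 CPM in WT and at 6.98, 6.09 and 6.01 CPM in Myc. In Grhl2KO_Myc it stood at 1.26, 1.25, 0.736 and 0.785 CPM, without overlap with either group. Its mean of 1.01 ± 0.288 CPM there was 6.06-fold below the 6.12 ± 1.31 of WT and 6.30-fold below the 6.36 ± 0.539 of Myc. Gm17081, the shortest model at 478 bases, rests on few reads, 18 to 46 in each WT library and 18, 6, 2 and 3 in Grhl2KO_Myc 1 to 4. Its level was 0.629, 0.470, 0.361, 0.250 and 0.587 CPM in WT, 0.581, 0.430 and 0.418 in Myc and 0.232, 0.0800, 0.0213 and 0.0274 in Grhl2KO_Myc. The groups did not overlap, though Grhl2KO_Myc 1 came close to WT 4, and the mean was 5.09-fold lower than in WT. Without Grhl2KO_Myc 1 it was 10.7-fold lower than in WT and 11.1-fold lower than in Myc, and no other single library moved the fold of any of the 10 models by over 1.5 times.

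**Figure D1:**
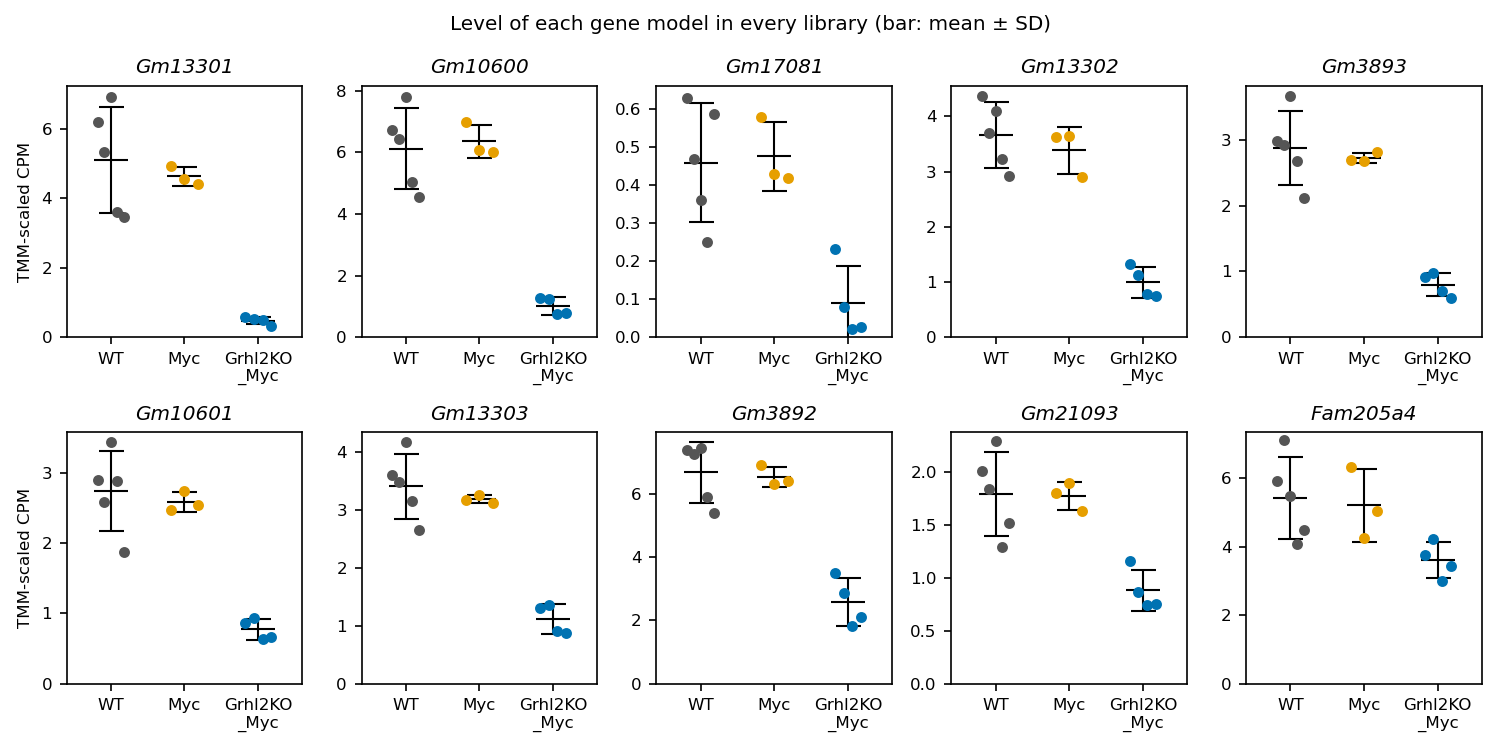
TMM-scaled CPM (y axis, starting at 0, a scale of its own in each panel) of each of the 10 gene models in every library of WT (n = 5), Myc (n = 3) and Grhl2KO_Myc (n = 4). Points are libraries, bars the mean ± SD, with the lower bar of Gm17081 cut at 0. In Gm13301 the 4 Grhl2KO_Myc libraries sit between 0.319 and 0.581 and all others at 3.45 or above, whereas in Fam205a4 the groups WT and Grhl2KO_Myc overlap.

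The other 6 of the 9 copies were 2.03 to 3.69-fold lower in Grhl2KO_Myc than in WT. Gm3892, the antisense RNA and the model of highest mean level, stood at 7.39, 7.26, 7.46, 5.90 and 5.40 CPM in WT, 6.90, 6.31 and 6.39 in Myc and 3.50, 2.85, 1.84 and 2.11 in Grhl2KO_Myc. Its mean was 6.68 ± 0.961 CPM in WT and 2.57 ± 0.751 in Grhl2KO_Myc, 2.596-fold lower. Gm13302, a pseudogene in a single exon, stood at 4.37, 3.70, 4.10, 3.22 and 2.92 CPM in WT, 3.63, 3.64 and 2.89 in Myc and 1.33, 1.12, 0.779 and 0.739 in Grhl2KO_Myc, a mean 3.69-fold lower than in WT.

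In both models every Grhl2KO_Myc library lay below all other libraries. Gm3893, a protein-coding model in 2 exons, ranged from 2.12 to 3.66 CPM in WT, from 2.68 to 2.82 in Myc and from 0.602 to 0.973 in Grhl2KO_Myc, 3.60-fold below WT. Gm10601, the model nearest the start of the stretch, ranged from 1.87 to 3.43 CPM in WT, from 2.47 to 2.74 in Myc and from 0.630 to 0.933 in Grhl2KO_Myc, 3.54-fold below WT. Gm13303, a pseudogene on the minus strand, ranged from 2.65 to 4.17 CPM in WT, from 3.12 to 3.25 in Myc and from 0.867 to 1.36 in Grhl2KO_Myc, 3.07-fold below WT.

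The ranges of these 3 models overlapped one another in WT and in Grhl2KO_Myc, while in Myc Gm13303 lay above the other two. Gm21093, the protein-coding model on the minus strand, had the smallest difference of the 9 copies. It stood at 2.01, 1.84, 2.29, 1.29 and 1.52 CPM in WT, 1.80, 1.89 and 1.63 in Myc and 1.16, 0.866, 0.747 and 0.748 in Grhl2KO_Myc. Grhl2KO_Myc 1 lay just below WT 4, and the mean was 2.03-fold below WT and 2.02-fold below Myc.

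Fam205a4, the model outside the family, differed least. It stood at 5.91, 7.14, 5.48, 4.10 and 4.49 CPM in WT, 6.34, 4.24 and 5.05 in Myc and 3.77, 4.24, 3.00 and 3.45 in Grhl2KO_Myc. Grhl2KO_Myc 2 lay above WT 4, so the groups overlapped, and it lay just under the lowest Myc library. The mean of 3.61 ± 0.522 CPM in Grhl2KO_Myc was 1.501-fold below the 5.42 ± 1.21 of WT and 1.44-fold below the 5.21 ± 1.06 of Myc.

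Summed over the 10 models, the level was 42.72, 41.2, 45.7, 32.1 and 29.6 CPM in WT, 39.5, 35.8 and 35.3 in Myc and 14.9, 14.2, 9.84 and 10.3 in Grhl2KO_Myc. The means were 38.2 ± 7.002, 36.9 ± 2.28 and 12.3 ± 2.61 CPM, so that Grhl2KO_Myc was 3.10-fold below WT and 2.99-fold below Myc. Without Fam205a4 the sum of the 9 copies was 32.8 ± 6.21, 31.7 ± 1.45 and 8.71 ± 2.19 CPM, 3.77-fold below WT and 3.64-fold below Myc. Fam205a4 made up 14.2% of the summed WT level and 29.3% of the summed Grhl2KO_Myc level, and Gm13301 13.3% and 3.88%.

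No library of Grhl2KO_Myc overlapped WT in 9 of the 10 models, all lower, where 3.81% of the 23742 genes tested were lower without overlap. Against Myc it was 10 of 10, where 7.89% of the genes tested were lower without overlap. The models were chosen for these contrasts, and nothing is read from those counts. Between Myc and WT, 0 of 10 models separated, where 1.34% of genes were lower and 2.22% higher without overlap. The median log2 fold change of the models was -0.07 for Myc against WT, -1.84 for Grhl2KO_Myc against WT and -1.76 for Grhl2KO_Myc against Myc. Over all genes tested it was 0.00, -0.01 and 0.00. Each pair of these comparisons shares the libraries of a group.

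The difference was not of the same size in each model. Among the 10, the largest folds belonged to the models furthest along the chromosome. Gm10601, Gm13302 and Gm3893, spread over the rest of the stretch, shared folds of 3.54 to 3.69. Copies of the family outside the 10 that lie further along still had smaller folds than those largest ones. They were 2.78 for Gm3883, 3.10 for Gm2163, 2.68 for Gm10593 and 1.95 for Gm12394. Scaled by exon length, the level in WT was highest for Gm3893 at 3.16 ± 0.613 CPM per kb, followed by Gm10600 at 2.99 ± 0.642 and Gm13303 at 2.66 ± 0.437. Gm13301, Gm13302, Gm10601 and Gm3892 followed at 2.08 to 1.89 CPM per kb, then Fam205a4 at 1.31, Gm21093 at 1.05 and Gm17081 at 0.961. Each model's range over the WT libraries overlapped that of the next in this order, in 9 of 9 neighbouring pairs.

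In Grhl2KO_Myc the order per kb was another. Gm3893, Fam205a4 and Gm13303 led at 0.879, 0.875 and 0.864 CPM per kb, and Gm10600, the second in WT, was the eighth at 0.493 ± 0.141. Gm13301 and Gm17081 came last at 0.196 ± 0.0465 and 0.189 ± 0.206 CPM per kb. Neighbours in this order overlapped in 8 of 9 pairs, and the pair that did not was Gm10600 (lowest library 0.360) over Gm13301 (highest library 0.237). The difference in level, WT minus Grhl2KO_Myc, was 2.49 CPM per kb for Gm10600, 2.28 for Gm3893, 1.89 for Gm13301 and 1.79 for Gm13303, against 0.532 for Gm21093 and 0.438 for Fam205a4. On this scale Gm3893, with a fold of 3.60, differed by more than Gm13301, with a fold of 10.6.

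**Figure D2:**
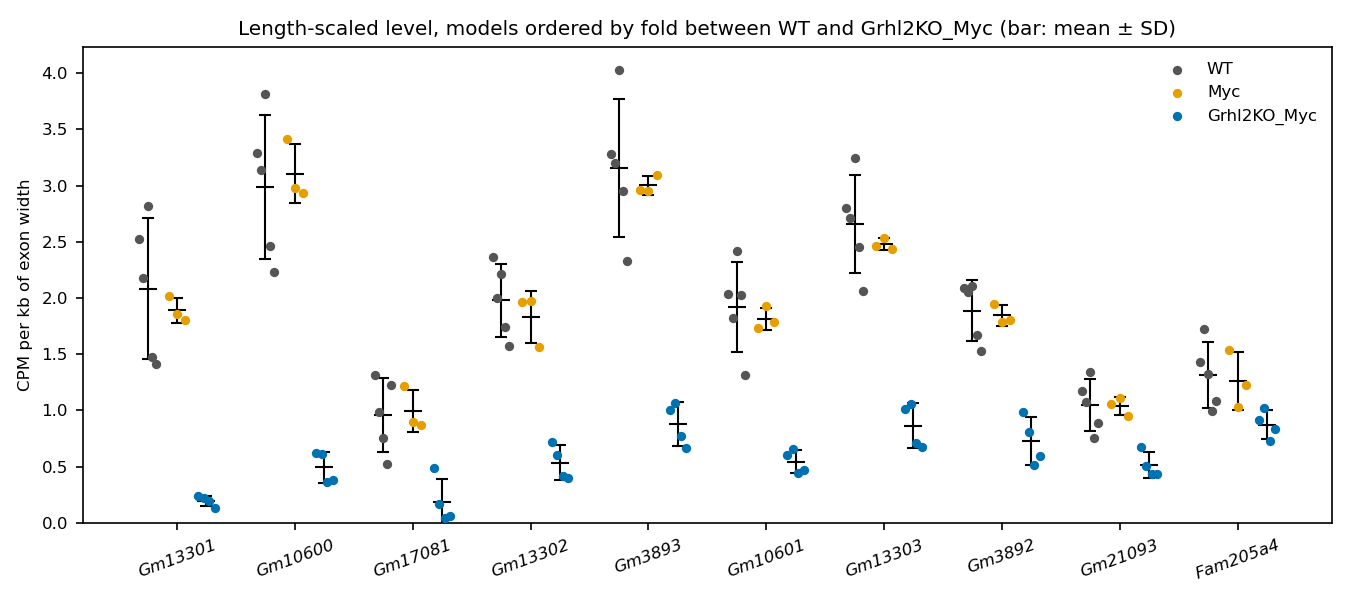
Level in CPM per kb of exon (y axis, starting at 0) of each gene model, ordered from the largest to the smallest fold between WT and Grhl2KO_Myc. Points are the libraries of WT (n = 5), Myc (n = 3) and Grhl2KO_Myc (n = 4), bars the mean ± SD. The Grhl2KO_Myc means lie between 0.189 and 0.879, and the WT means between 0.961 and 3.16.

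The models moved together over the libraries. Over the 12 libraries the correlation of their log2 levels ranged from 0.761 to 0.998 over 45 pairs, with a median of 0.961, as a description of rows that share reads and genotypes. Within WT the summed level was lowest in WT 5 and WT 4, at 29.6 and 32.1 CPM against 41.2 to 45.7 in the others. Within Grhl2KO_Myc it was lowest in replicates 3 and 4, at 9.84 and 10.3 CPM against 14.9 and 14.2. WT 4 and Grhl2KO_Myc 3 and 4 are the libraries of low proximal tubule score, and WT 5 and Grhl2KO_Myc 1 and 4 carry high Ddx3y.

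Without the 3 libraries of low proximal tubule score, WT ran from 29.6 to 45.7 CPM and Grhl2KO_Myc from 14.2 to 14.9, 2.74-fold below WT and 2.54-fold below Myc. Of the libraries high in Ddx3y, WT 5 stood at 29.6 CPM, Myc 3 at 35.3 and Grhl2KO_Myc 1 and 4 at 14.9 and 10.3. Of those low in Ddx3y, WT 1 to 4 stood at 42.72, 41.2, 45.7 and 32.1 CPM. Myc 1 and 2 stood at 39.5 and 35.8 CPM there, and Grhl2KO_Myc 2 and 3 at 14.2 and 9.84. The part of sex and of the proximal tubule score in the difference was not tested.

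Cell type markers were looked at beside these levels, and their part in the result was not tested. Of 10 proximal tubule and 5 thick limb and distal tubule markers, 0 were called in any comparison by edgeR's quasi-likelihood test (adjusted p under 0.05 over all genes). For Grhl2KO_Myc against WT, 2 and 4 of them were lower at an unadjusted p under 0.05. Their median log2 fold changes for Grhl2KO_Myc against WT were -0.77 and -0.85. The summed proximal tubule level ran from 853.2 to 3755 CPM in WT, 2432 to 3182 in Myc and 1076 to 2203 in Grhl2KO_Myc, and the summed thick limb and distal tubule level from 768.4 to 1451, 1111 to 1380 and 690.9 to 1011. For Grhl2KO_Myc against WT, 1 of 5 collecting duct markers was called higher, and 2 of 5 podocyte markers were called lower. At an unadjusted p under 0.05 in the same test, 3 collecting duct markers were higher and 4 podocyte markers lower. Against Myc, 4 thick limb and distal tubule and 2 podocyte markers were lower at that threshold, and 0 proximal tubule or collecting duct markers.

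For cells in which Fam205 and the SPATA31 family are known, the germ cell markers Tnp1, Tnp2, Prm1, Prm2 and Dazl were at or near 0, at most 0.144 CPM in any library. The summed level of the 7 germ cell markers was 14.2 to 17.5 CPM in WT, 13.7 to 15.9 in Myc and 10.1 to 15.98 in Grhl2KO_Myc, nearly all of it Sycp3. The summed level of 8 lymphocyte markers was 5.58 to 6.33 CPM in WT, 6.38 to 8.70 in Myc and 7.38 to 10.1 in Grhl2KO_Myc. Of the 5 that could be tested, 1 was called higher in Grhl2KO_Myc than in WT, Cr2, a complement receptor of B cells, at 5.77 ± 1.04 against 2.57 ± 0.442 CPM (edgeR adjusted p = 0.0016). The summed level of 5 lymphatic markers was 67.6 to 81.6, 60.1 to 64.1 and 60.6 to 82.9 CPM.

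Other genes of the stretch were not used to choose the 10, and their levels are given beside those of the models. The 40 annotated neighbours were sorted by sequence: 14 share at least one 50-base word with a model, of which 12 could be tested, and 26 share none, of which 23 could be tested. For Grhl2KO_Myc against WT, where 6.67% of all genes tested were called, 2.61% lower and 4.06% higher, 6 of the 12 that share words were lower and 0 higher. Of the 23 that share none, 0 were lower by edgeR, and 1, Il11ra1, was lower at an unadjusted p under 0.05. DESeq2 and limma-voom also called 0 of the 23 lower. Their median log2 fold change was -0.05, against -0.92 for those that share words. Whether the groups of neighbours differ from each other was not tested.

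The 6 lower neighbours were Gm17167, Gm5859, Gm3883, Gm2163, Gm10593 and Gm12394, further copies of the same family. Since they share sequence with the models, and so may share reads, their lower level is not taken as separate evidence. Gm17167, a processed transcript that overlaps Gm13301, stood at 10.6 ± 2.10 CPM in WT (n = 5), 10.6 ± 0.801 in Myc (n = 3) and 2.70 ± 0.512 in Grhl2KO_Myc (n = 4), 3.93-fold below WT. Gm5859, a pseudogene that lies between Gm13301 and Gm17081, stood at 6.43 ± 1.15, 6.21 ± 0.440 and 1.09 ± 0.374 CPM, 5.89-fold below WT, the largest fold of the 6. The other 4 were 1.95 to 3.10-fold below WT, and in all 6 no Grhl2KO_Myc library reached WT. The relatives of Fam205a4, named after their values were seen, differed about as much as it did. Fam205a1 stood at 3.11 ± 0.978 CPM in WT and 2.07 ± 0.312 in Grhl2KO_Myc (edgeR adjusted p = 0.12). Fam205a2 and Fam205a3 both stood at 5.24 CPM in WT and 3.48 in Grhl2KO_Myc (edgeR adjusted p = 0.070 and 0.071). They became lower calls when WT 4 was left out, which took the calls among the 12 from 6 to 9, and with DESeq2, which gave 10.

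**Figure D3:**
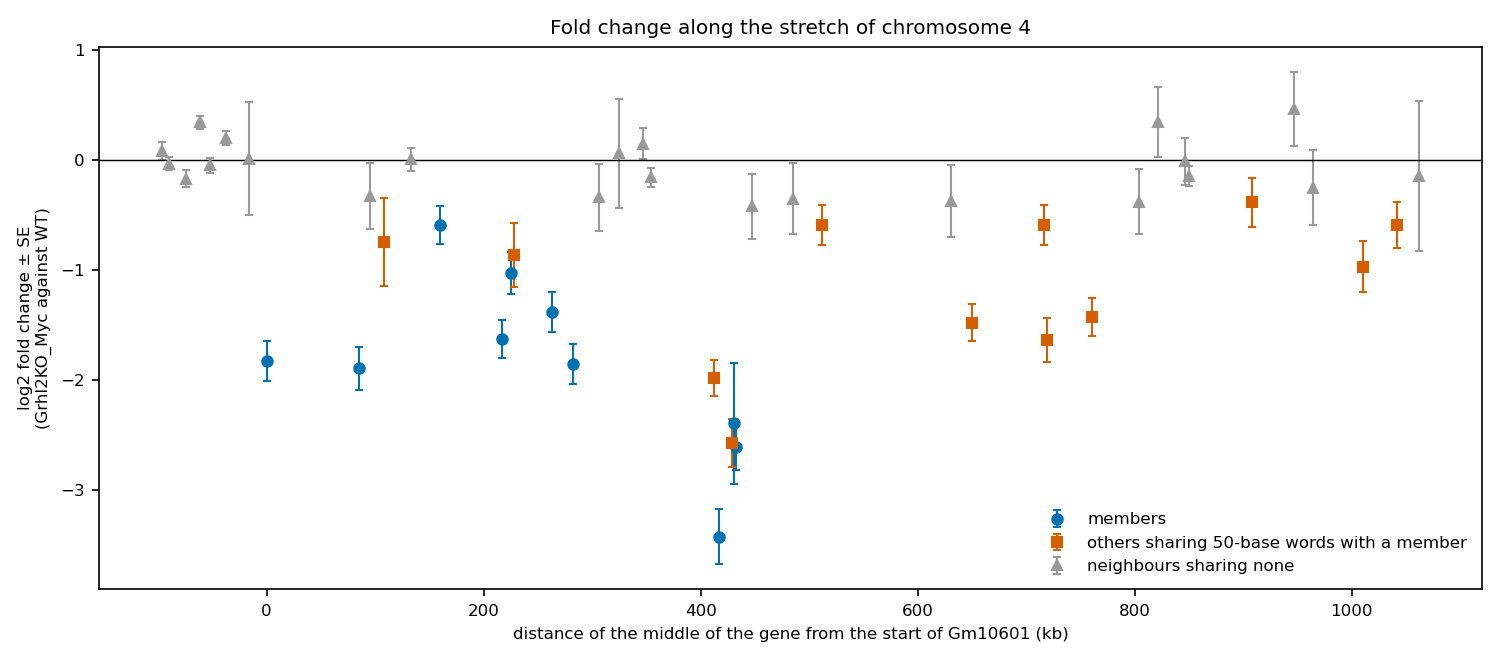
log2 fold change of Grhl2KO_Myc against WT (y axis, edgeR estimate ± SE) by the distance of each gene's middle from the start of Gm10601 in kb (x axis). Circles are the 10 models, squares the other genes that share 50-base words with a model and triangles the genes that share none. The triangles lie around 0 along the whole stretch, between -0.42 and 0.47, while circles and squares lie below 0 between and beside them.

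The genes that share no word with a model lie among the copies and to either side of them, and showed no lower call. Several of them share words with other genes, and so may share reads with those. The share of 50-base words found in no other annotated transcript was 0% for Il11ra2, 28.4% for Ccl21a, 34.3% for Gm13305 and 53.7% for Il11ra1. It was 74.2% for Galt and 100% for Dctn3. Whether the stretch was lower at the position of each gene was not tested. Il11ra1, Dctn3 and Galt lie before Gm10601, the first of the models. Il11ra1, the interleukin 11 receptor chain and the neighbour of highest level, stood at 79.2 ± 7.73 CPM in WT and 70.3 ± 5.56 in Grhl2KO_Myc (log2 fold change -0.17 ± 0.08 SE, edgeR adjusted p = 0.22). Dctn3, a dynactin subunit, stood at 30.6 ± 2.69 and 29.9 ± 0.313 CPM (adjusted p = 0.79, edgeR), and Galt, an enzyme of galactose use, at 34.6 ± 3.11 and 33.5 ± 2.42 CPM (adjusted p = 0.73, edgeR). Gm13305 lies between the models Gm3893 and Gm13301, and Il11ra2 and Ccl21a lie beyond Gm10600, the last model. All were named after their values were seen. Gm13305 stood at 24.6 ± 2.70 and 22.1 ± 2.21 CPM (adjusted p = 0.33, edgeR). Il11ra2 stood at 19.6 ± 2.07 and 17.7 ± 2.03 CPM (adjusted p = 0.39, edgeR). The chemokine gene Ccl21a stood at 10.7 ± 3.46 and 9.0005 ± 4.80 CPM (adjusted p = 0.72, edgeR). None of these p-values shows that a gene did not change.

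Against Myc, where 0.842% of all genes tested were called, 0.484% lower and 0.358% higher, 5 of the 12 that share words were lower in Grhl2KO_Myc and 0 higher. Of the 23 that share none, 0 were called in either direction by edgeR, with a lowest adjusted p of 0.16 and a median log2 fold change of -0.01. At an unadjusted p under 0.05, 0 were lower, limma-voom called 0, and DESeq2 called 1 higher, Ccl27a. Between Myc and WT, where 0.00421% of all genes tested were called, 0 of the 35 neighbours tested were called by edgeR, DESeq2 or limma-voom, and 0 had an unadjusted p under 0.05. Of 43 single genes listed to either side of the stretch, 40 could be tested. By edgeR 0 were lower in Grhl2KO_Myc than in WT, also at an unadjusted p under 0.05. In the other comparisons 0 of the 40 were called by edgeR, 5 and 4 having an unadjusted p under 0.05, with median log2 fold changes of 0.00 for Myc against WT and 0.06 for Grhl2KO_Myc against Myc. In each of the 19 alternative fits for Grhl2KO_Myc against WT and the 17 against Myc, 0 of the neighbours that share no word were lower.

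Away from the stretch, the genes whose profile was most like the summed level were found by Pearson's r of log2 CPM over the 12 libraries, among 23697 genes, as a description with no p, since the libraries share genotypes. The highest were Wfdc15b (r = 0.974), Vtcn1 (0.971), Gm11612 (0.966), Naaladl2 (0.962) and Mgst1 (0.955). Muc1 (0.954), Bglap3 (0.954), 1810064F22Rik (0.948), Fmn1 (0.944) and Mdfic (0.941) came next. The copies Gm2163 and Gm17167 each reached 0.995.

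Wfdc15b, a gene of the whey acidic protein family, stood at 22.5 ± 1.79 CPM in WT, 25.9 ± 2.44 in Myc and 7.09 ± 1.96 in Grhl2KO_Myc, 3.17-fold below WT. Mgst1, a membrane-bound glutathione transferase, stood at 62.8 ± 5.75, 68.3 ± 2.76 and 33.8 ± 3.95 CPM, 1.85-fold below WT. Muc1, a mucin on the apical face of epithelia, stood at 35.7 ± 2.67, 35.3 ± 0.986 and 23.9 ± 3.19 CPM, 1.49-fold below WT. Bglap3, an osteocalcin-related gene, stood at 3.01 ± 0.288, 2.81 ± 0.215 and 0.622 ± 0.219 CPM, 4.84-fold below WT.

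All 10 of these genes had their lowest mean in Grhl2KO_Myc, with folds below WT of 1.20 (Mdfic) to 7.17 (Gm11612), and 5 of them (Wfdc15b, Gm11612, Naaladl2, Mgst1 and 1810064F22Rik) had a higher mean in Myc than in WT, unlike the summed level. The most opposed profiles were those of Gm16069 (r = -0.966), Mars (-0.964), Clstn3 (-0.964), Crisp1 (-0.964) and Ddx54 (-0.961). Crisp1, a secreted cysteine-rich protein known from the epididymis, stood at 2.34 ± 0.703 CPM in WT, 1.48 ± 0.254 in Myc and 28.0 ± 6.78 in Grhl2KO_Myc, 11.96-fold above WT. Mars, the methionyl-tRNA synthetase, stood at 59.9 ± 2.82, 60.1 ± 3.57 and 73.4 ± 2.70 CPM, 1.23-fold above WT.

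**Figure D4:**
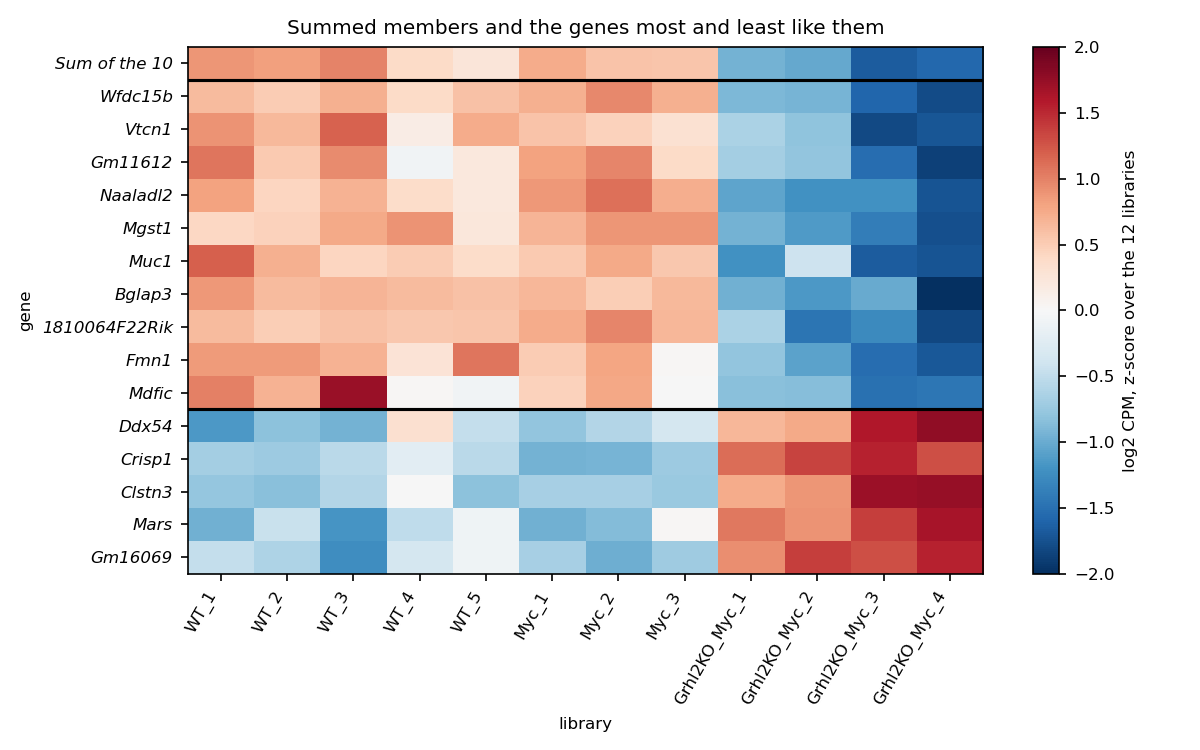
z-score of log2 CPM over the 12 libraries (colour, from -2 to 2) for the summed level of the 10 models and for the 10 genes of highest and 5 of lowest correlation with it; columns are libraries, rows genes. The summed level is below its mean in the 4 Grhl2KO_Myc libraries and above it in the other 8.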

How the data were processed

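PolyA RNA of whole right kidneys was sequenced in 12 libraries (TruSeq RNA v2, which does not mark strand, per the labels' protocols). The authors deposited raw counts per gene symbol with a gene width; HISAT2 (version not given) and mm10 are named in the submitters' processing notes, and no source used here gives the counting tool or its rule for reads that fit several places. Samples were grouped by genotype label (WT 5, Myc 3, Grhl2KO_Myc 4), and columns were matched to samples by the identifiers in their titles. The closest pair of replicates differed more than counting noise (chi-square per degree of freedom 10.4), so each library was counted once.

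From the counts, levels were computed as TMM-scaled CPM. Genes passing filterByExpr (23742) were fitted over all 12 libraries with edgeR 4.0.16 in R 4.3.3 by its quasi-likelihood test, with Benjamini-Hochberg adjustment over all of them and a threshold of 0.05. limma-voom (limma 3.58.1) and DESeq2 1.42.0 were alternatives. The fit was tested on simulated data.

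Positions, exons and transcripts were those of GENCODE M21 (mm10), with 42052 symbols (90.6%) matched and the width equal for 10 of 10 models. Sequence sharing was found by 50-base words and BLAST 2.17.0, over transcripts only, since no genome was used here. The stretches printed were placed with edlib 1.3.9.post1.

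The models and gene lists were chosen with earlier results of these data known. The text names all 10 models, the neighbours called and the 4 of highest level (1 of these is not reported here), the 10 genes most and the 5 least correlated with the summed level, and Grhl2, Ddx3y and Xist. Replicate numbers did not pair libraries: the correlations of same-numbered deviations ran from -0.11 to 0.23.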

Additional observations from a re-analysis of the deposited data

Results flagged for a closer look

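In 3 of 72 groups of values looked at, a library stood far from the rest of its group, and chance flags about 1 in 20. Gm3883, a further copy of the family, stood at 2.31 CPM in replicate 1 of Grhl2KO_Myc, whose other 3 replicates lay at 1.55 to 1.64. Dctn3, a gene at the edge of the stretch, stood at 35.3 CPM in WT 4 against 28.5 to 30.1 in the other 4 WT libraries. Clstn3, among the genes most opposed to the summed level, stood at 6.07 CPM in WT 4 against 4.35 to 4.79 in the others. None of the 10 models was among the values that stood out.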

How the results depend on the processing

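The summed level of the 10 models kept its direction in every alternative for both comparisons with Grhl2KO_Myc. Its log2 ratio was -1.63 against WT (-1.91 to -1.45 over the alternatives, -1.75 to -1.54 without a library) and -1.58 against Myc (-1.86 to -1.34, and -1.69 to -1.49 without a library). The value of -1.86 came from leaving out Fam205a4, an alternative chosen after seeing the data, as was adding 6 other copies (-1.68 and -1.64). For Myc against WT it was -0.05 (-0.23 to 0.02). The models without overlap numbered 9 to 10 against WT and 9 to 10 against Myc, and 0 between Myc and WT.

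Neighbours called for Grhl2KO_Myc against WT were 7 (6 to 11 without a library, 11 without WT 4) and 12 with DESeq2. Those that share no word gave 0 lower calls in every fit. Over all genes, Myc against WT gave 1 call, 44 with DESeq2, 0 with limma-voom, 0 with only the groups compared and 0 to 6 without a library, 6 being without Myc 1. At an unadjusted p under 0.05 there were 1098. Grhl2KO_Myc against WT gave 1584 calls, 2703 with DESeq2, 995 with only the groups compared and 750 to 3778 without a library: 3778 without WT 4, 750 and 832 without Grhl2KO_Myc 4 and 3, 1046 without Grhl2KO_Myc 1, and 935, 894 and 885 without WT 1, 2 and 3. Grhl2KO_Myc against Myc gave 200 calls, 777 with DESeq2, 318 without WT 4, Grhl2KO_Myc 3 and Grhl2KO_Myc 4, and 70 to 163 without a library: 78, 70 and 88 without Myc 1, 2 and 3, and 123, 111 and 91 without Grhl2KO_Myc 2, 3 and 4. The cause was not tested. With the replicate number as a block the calls were 0, 993 and 88, the neighbours called 0, 7 and 5, and the summed log2 ratios -0.23, -1.73 and -1.53; the numbers pair no libraries.

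Reads that fit several copies limit every value of a single model, and the few reads of Gm17081 limit its fold, which went from 5.09 to 10.7 against WT without Grhl2KO_Myc 1, an alternative also chosen after seeing the data. Genomic copy number was not measured.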
